A study of Mus musculus with 24 samples.

Results

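The messenger RNAs of 10 genes that break down the branched-chain amino acids leucine, isoleucine and valine, or that regulate this breakdown, were followed in inguinal subcutaneous white adipose tissue of C57BL/6J mice. The genes were Bcat2, Bckdha, Bckdhb, Dbt, Bckdk, Ppm1k, Ivd, Mccc1, Pcca and Hibch. They were taken by symbol for their place in the pathway, with earlier results of these data known, and all 10 were found among the 38013 genes that both deposited count tables share. All groups were transgenic for AMPK γ1, a regulatory subunit of the AMP-activated protein kinase by which cells sense falling energy. In WT-Tg mice the transgene was wild type (AMPKg1-WT), and in D316A-Tg mice it was the gain-of-function form D316A. Which promoter and cell type drive the transgene is not given in the sources used here, and no group without a transgene was analysed here. The age was 16 weeks on chow and 24 weeks on the high-fat diet (HFD), of which 45% is fat. There were 6 libraries in each of the 4 groups, with numbers 1 to 6 (WT-Tg) and 7 to 12 (D316A-Tg) within each diet. Whether each library is a separate animal is not stated in the labels, and p-values therefore measure only a spread between samples that may be technical.

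The branched-chain amino acids share their first steps of breakdown. Bcat2 encodes the mitochondrial aminotransferase that converts each of them to its keto acid, and the branched-chain keto acid dehydrogenase complex then removes carbon dioxide from the keto acid in the committed step. A kinase, Bckdk, switches this complex off by phosphorylation and a phosphatase, Ppm1k, switches it back on, after which separate mitochondrial routes carry the leucine, isoleucine and valine skeletons to acetyl-CoA, acetoacetate or propionyl-CoA. In adipocytes this breakdown is known to supply carbon for lipid synthesis, and in brown fat it is known to fuel heat production.

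The kinase and phosphatase genes are shown first by sequence, because these opposing regulators differed from each other in how they varied between libraries. The lines give the 250 bases before the annotated start of each gene, 5′ to 3′ on the strand of the gene, from RefSeq on GRCm38.p6. Capitals mark matches on either strand to CCAAT (read as ATTGG on the reverse strand) or to TGACGT, the core of cyclic AMP response elements.
Bckdk, chr7:127903823-127904072, plus strand: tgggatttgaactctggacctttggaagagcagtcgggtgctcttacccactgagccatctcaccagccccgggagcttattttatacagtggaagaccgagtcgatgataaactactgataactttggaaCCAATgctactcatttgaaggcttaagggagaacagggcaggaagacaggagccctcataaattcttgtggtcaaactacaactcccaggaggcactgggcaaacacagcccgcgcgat
Ppm1k, chr6:57535488-57535737, minus strand: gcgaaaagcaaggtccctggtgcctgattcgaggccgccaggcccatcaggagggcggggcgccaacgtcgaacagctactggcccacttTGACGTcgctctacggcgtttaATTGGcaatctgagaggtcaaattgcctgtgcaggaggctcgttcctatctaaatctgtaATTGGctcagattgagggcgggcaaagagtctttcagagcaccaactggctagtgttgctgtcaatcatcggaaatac
The Bckdk window held 1 CCAAT match and the Ppm1k window held 2 together with 1 TGACGT match. Of the 9 members with an entry in the promoter table, 6 held a CCAAT match, against 33.8% of the 32851 promoter windows of this length. TGACGT was found in 1 of the 9, Ppm1k, against 6.47% of all windows. These matches describe the letters of the windows and were not tied to any factor. No entry was matched for Dbt.

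Library totals lay between 13254536 and 22748132 counts. Levels are given as CPM, counts scaled to a library of 1e6, after TMM scaling of all 24 libraries together, as mean ± SD of the 6 libraries of a group. The fewest counts of any of the 10 genes in a library were 183, for Ppm1k. The targeted gene Prkag1, which encodes AMPK γ1, stood at 379 ± 86.0 CPM in WT-Tg and 377 ± 96.1 in D316A-Tg on chow, and at 325 ± 18.7 and 391 ± 184 on HFD (SD, n = 6). Both genotypes carry the transgene, so these levels do not check the labels. Adipocyte identity was clear, since all 14 mature adipocyte markers, such as Adipoq and Plin1, were detected in every group and summed to between 18602 and 84405 CPM in a library. Lymphocyte markers set some libraries apart although the lymph node was removed at dissection. The mean log2 CPM of 9 B lymphocyte markers was at least 6.05 in WT-Tg 1 to 4 and D316A-Tg 8 and 11 on chow, while the remaining 6 chow libraries reached at most -0.26. On HFD it was at least 4.27 in WT-Tg 3 and D316A-Tg 7, 8, 9 and 11, while the remaining 7 reached at most 1.89. These are called lymphocyte-rich libraries here, and many of the results are given with and without them. In whole tissue, fewer cells of a type and less RNA per cell cannot be told apart.

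Compared per length of transcript, as CPM per kilobase of the longest principal transcript, the phosphatase Ppm1k stood far below the 9 other genes. In WT-Tg mice on chow the highest means were those of Bcat2 at 123 ± 46.7 CPM per kilobase and Bckdha at 111 ± 40.0. Ivd, Hibch, Mccc1 and Bckdhb followed at 69.7 to 93.3, and Pcca stood at 46.2 ± 21.3. Dbt, the core subunit of the dehydrogenase, was at 27.7 ± 12.2 and the kinase Bckdk at 20.5 ± 5.76. The phosphatase Ppm1k was lowest at 3.78 ± 0.48. Neighbours in this order overlapped within their SD, except that Ppm1k stood clear of Bckdk.

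The bottom of the order was the same in the 4 groups, and the top was not. Pcca, Dbt, Bckdk and Ppm1k held the last 4 places in every group. The highest mean belonged to Bckdha in D316A-Tg mice on both diets, at 221 ± 69.8 CPM per kilobase on chow and 142 ± 39.9 on HFD, and to Hibch in WT-Tg mice on HFD, at 98.0 ± 14.9. Bcat2, first among the genes of WT-Tg mice on chow, was the fifth on HFD at 78.5 ± 11.5 CPM per kilobase.

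**Figure D1:**
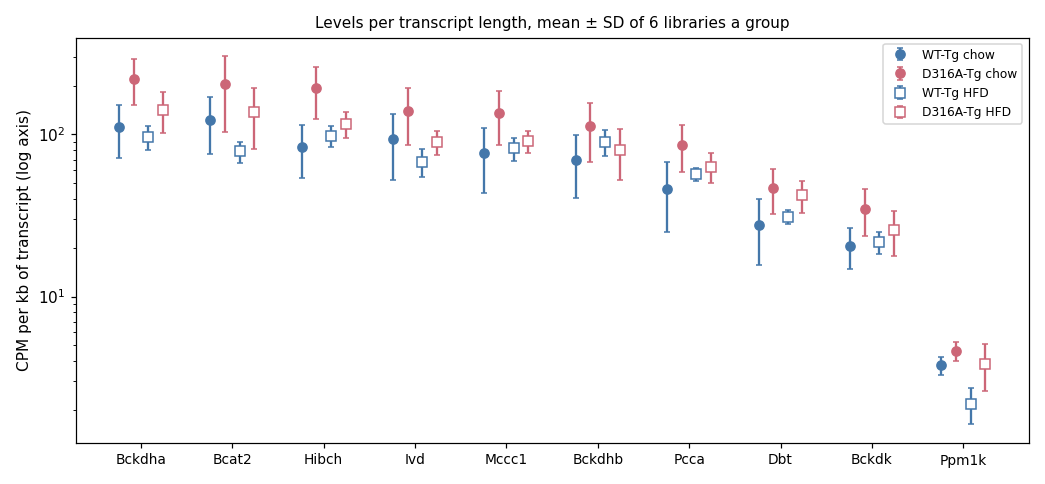
Levels of the 10 genes as CPM per kilobase of transcript on a log axis, with points for the mean and bars for the SD of the 6 libraries in each of the 4 groups. Ppm1k lies lowest in each group, at 2.18 to 4.64 CPM per kilobase, and Bckdk next to lowest.

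On chow, all 10 genes had higher fitted levels in D316A-Tg than in WT-Tg, and Hibch passed the test across all genes. The share of all 15249 tested genes called in this comparison was 8.54%, at an adjusted p below 0.05 in edgeR's quasi-likelihood test with Benjamini-Hochberg adjustment, so 1 of 10 is near the background. The median log2 fold change of the 10 genes was 0.68, beside -0.07 over all genes tested, and 6 of the 10 had an unadjusted p below 0.05, as had 29.9% of all genes. The range of D316A-Tg libraries overlapped that of WT-Tg libraries for each of the 10 genes, and the share of all genes with such overlap is not given here. DESeq2 called 4 of them higher, namely Bckdha, Bckdk, Pcca and Hibch, and 19.5% of all genes in either direction. Limma voom with sample weights called 9 of the 10 and 71.0% of all genes.

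Hibch encodes the hydrolase that frees 3-hydroxyisobutyrate from its coenzyme A ester in valine breakdown. Its lowest, median and highest levels in CPM were 75.2, 142 and 229 in WT-Tg and 157, 418 and 448 in D316A-Tg. D316A-Tg libraries 7, 9, 10 and 12 stood far above every WT-Tg library, library 11 was just above them at 237 CPM, and library 8 lay among them at 157 CPM. The log2 fold change was 1.12 ± 0.28 (SE; adjusted p = 0.0362). The call was lost when any of WT-Tg 1 to 4 or D316A-Tg 7, 9, 10 and 12 was left out, with log2 fold changes of 0.99 to 1.12 and adjusted p between 0.0705 and 0.0974. Without the 6 lymphocyte-rich libraries it was 0.97 ± 0.10 (SE; adjusted p = 0.00813), with 2 WT-Tg libraries against 4 D316A-Tg.

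At the first step, Bcat2 ranged from 139 to 357 CPM with a median of 189 in WT-Tg and from 134 to 566 CPM with a median of 366 in D316A-Tg. D316A-Tg held both the lowest and the highest library, and the difference was 0.66 ± 0.34 on the log2 scale (SE; adjusted p = 0.205).

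The dehydrogenase itself was represented by its decarboxylase subunits Bckdha and Bckdhb and its acyltransferase core Dbt. Bckdha, which carries the phosphorylation sites through which the complex is switched off, ranged from 109 to 313 CPM with a median of 210 in WT-Tg and from 204 to 561 CPM with a median of 464 in D316A-Tg. Its log2 fold change of 0.92 ± 0.26 just missed the threshold (adjusted p = 0.0521), and without the lymphocyte-rich libraries it was 0.74 ± 0.12 (SE; adjusted p = 0.0149). Bckdhb had medians of 87.9 and 191 CPM with a log2 fold change of 0.62 (adjusted p = 0.204), and Dbt medians of 72.4 and 174 CPM with a log2 fold change of 0.69 (adjusted p = 0.114). In each of these subunits D316A-Tg libraries 8 and 11 were the lowest of their group.

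Neither regulator passed the test on chow. Bckdk ranged from 50.04 to 96.5 CPM with a median of 66.0 in WT-Tg and from 60.7 to 161 CPM with a median of 124 in D316A-Tg, a log2 difference of 0.68 ± 0.22 (SE; adjusted p = 0.0701). Ppm1k ranged from 18.1 to 25.0 CPM with a median of 20.9 in WT-Tg and from 20.3 to 29.8 CPM with a median of 27.2 in D316A-Tg, a log2 difference of 0.22 ± 0.13 (SE; adjusted p = 0.277). For both regulators the D316A-Tg libraries overlapped the WT-Tg ones.

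Further down the routes, none of the remaining 3 genes passed the test in the full set of libraries. Ivd, the isovaleryl-CoA dehydrogenase of the leucine route, had medians of 280 and 599 CPM in WT-Tg and D316A-Tg (log2 fold change 0.52, adjusted p = 0.279). Mccc1, the biotin-carrying subunit of the next leucine enzyme, had medians of 163 and 377 CPM (0.74, adjusted p = 0.125). Pcca, the biotin-carrying subunit of propionyl-CoA carboxylase in the isoleucine and valine routes, had medians of 105 and 263 CPM (0.84, adjusted p = 0.0854).

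Levels on chow moved with the lymphocyte markers in both genotypes. For 7 of the 10 genes, Bcat2, Bckdhb, Dbt, Bckdk, Ivd, Mccc1 and Pcca, each of the 6 lymphocyte-rich libraries was below each of the other 6, as for 22.2% of 15217 tested genes. Ivd, for example, lay between 191 and 301 CPM in the lymphocyte-rich libraries and between 483 and 686 CPM in the others. Over both genotypes Ppm1k showed no such split, with 20.6 to 29.8 CPM in the lymphocyte-rich libraries and 18.1 to 27.6 CPM in the others. Within WT-Tg, however, Ppm1k was higher in the 4 lymphocyte-rich libraries, at 20.6 to 25.0 CPM, than in the other 2, at 18.1 and 18.2 CPM. Within D316A-Tg its ranges overlapped, at 22.9 to 29.8 CPM in the lymphocyte-rich libraries and 20.3 to 27.6 CPM in the others. The lymphocyte-rich libraries were 4 of the 6 WT-Tg and 2 of the 6 D316A-Tg libraries, so this split and the genotype overlapped. The 14 mature adipocyte markers moved with it, summing to 18602 to 54518 CPM (median 25666) in WT-Tg and to 24349 to 84405 CPM (median 70748) in D316A-Tg. The 7 brown and beige adipocyte markers, none at 0, summed to 102 to 716 CPM in WT-Tg libraries and to 808 to 1600 CPM in D316A-Tg libraries, and their part in the result was not tested.

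In the other 6 libraries, 5 of the 10 genes rose in D316A-Tg on chow, namely Bckdha, Bckdk, Mccc1, Pcca and Hibch, with a median log2 fold change of 0.49 over the 10. The share of all genes called was 15.3% in this subset. In it, the 4 D316A-Tg libraries lay above both WT-Tg libraries for 8 of the 10 genes, all but Bcat2 and Ivd, as for 23.3% of 15217 genes. Other markers also split by genotype in this subset. The mean log2 CPM of 14 skeletal muscle markers was 6.32 and 8.00 in WT-Tg 5 and 6. In the 4 D316A-Tg libraries it was -0.29 to 3.90. That of 6 endothelial markers was 6.29 and 6.36 against 5.04 to 5.70. Their part in this subset, including the values of Hibch and Bckdha above, was not tested. With the mature adipocyte score of each library as a covariate, 4 genes were called higher, namely Bckdha, Dbt, Pcca and Hibch, against 17.9% of all genes called in that fit, and the median was 0.26. The difference of Bcat2 was then 0.02 and that of Bckdhb 0.00 on the log2 scale, while that of Hibch was 0.60 ± 0.11 (SE; adjusted p = 0.00433).

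**Figure D2:**
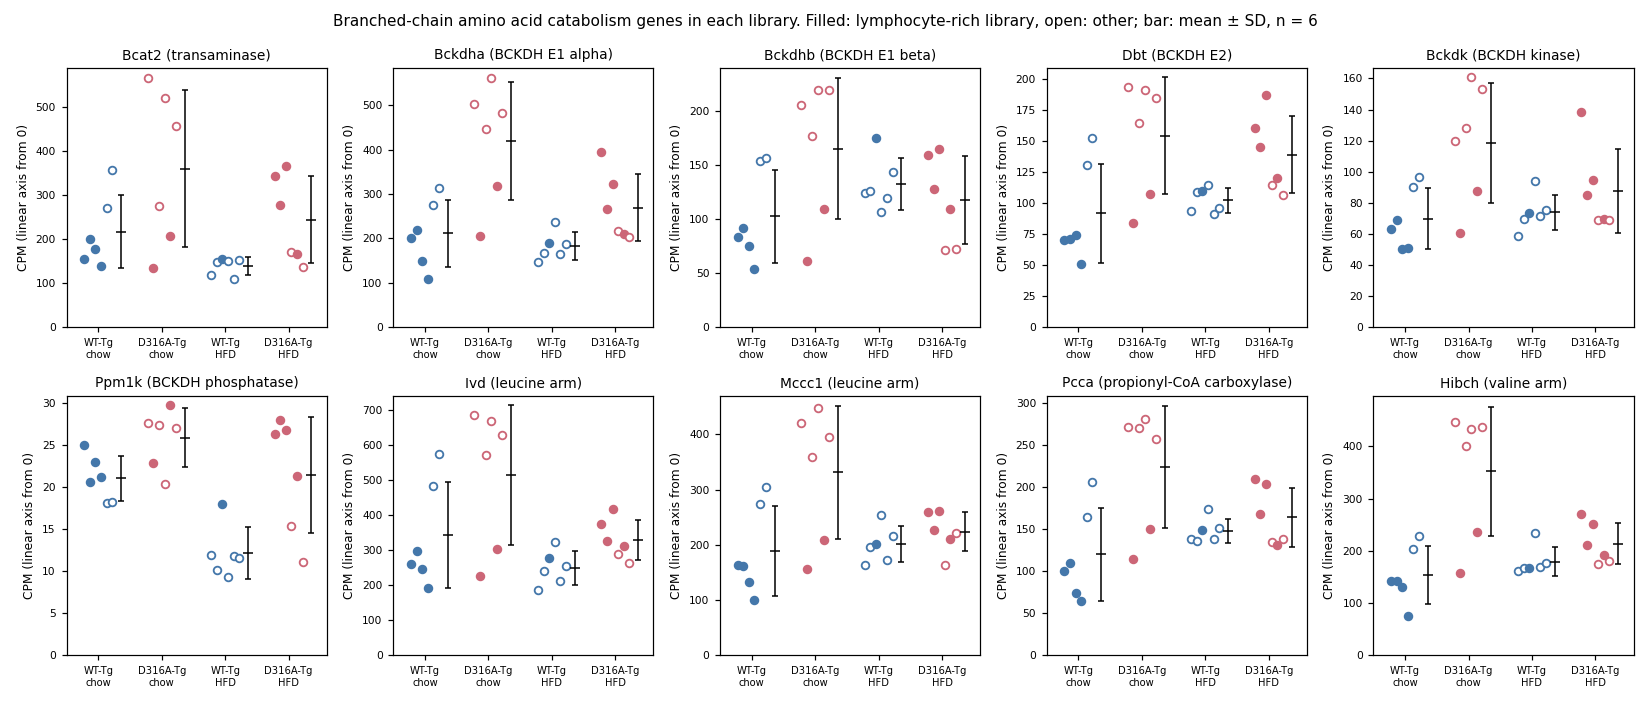
CPM of the 10 genes in each of the 24 libraries on linear axes that start at 0, by group, with filled points for lymphocyte-rich libraries, open points for the others, and bars for mean ± SD. On chow the filled points lie below the open ones for most genes, while Ppm1k on HFD has its filled points, at 18.01 to 27.9 CPM, above its open ones.

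On HFD, 9 of the 10 genes had higher fitted levels in D316A-Tg than in WT-Tg, and Ppm1k passed the test. The share of all 14649 tested genes called was 8.47%, so 1 of 10 is again near the background. The median log2 fold change of the 10 genes was 0.32, beside 0.01 over all genes, and 5 genes had an unadjusted p below 0.05, as had 30.7% of all genes. Those 5, Bcat2, Bckdha, Dbt, Ppm1k and Ivd, were the genes called higher by DESeq2, which called 19.1% of all genes, and by voom, which called 29.7%. None of the 10 had groups that did not overlap, and the share of all genes without overlap is not given here.

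Ppm1k ranged from 9.32 to 18.01 CPM with a median of 11.7 in WT-Tg and from 11.0 to 27.9 CPM with a median of 23.8 in D316A-Tg. The log2 fold change was 0.81 ± 0.23 (SE; adjusted p = 0.0494). On this diet the split by lymphocyte markers followed Ppm1k, with 18.01 to 27.9 CPM in the 5 lymphocyte-rich libraries and 9.32 to 15.4 CPM in the other 7, and among the 10 genes this clean split was seen for Ppm1k alone. Of 14641 tested genes, 7.13% were split in this direction. Of the lymphocyte-rich libraries 4 were D316A-Tg and 1, number 3, was the highest WT-Tg library. Without them the log2 fold change was 0.28 ± 0.17 (SE; adjusted p = 0.550), with 5 WT-Tg libraries against 2 D316A-Tg. The call was also lost on leaving out any of WT-Tg 1, 2, 4, 5 and 6 or D316A-Tg 7, 8, 9 and 11, with log2 fold changes of 0.72 to 0.82 and adjusted p between 0.0869 and 0.105.

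Bcat2 stood between 109 and 156 CPM with a median of 149 in WT-Tg and between 138 and 368 CPM with a median of 224 in D316A-Tg. The WT-Tg libraries were close together, and the D316A-Tg libraries split, with 7, 8 and 9 at 278 to 368 CPM and 10, 11 and 12 at 138 to 170 CPM. The log2 difference was 0.80 ± 0.24 (SE; adjusted p = 0.0556), and 0.18 ± 0.17 without the lymphocyte-rich libraries (SE; adjusted p = 0.695).

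Among the dehydrogenase subunits, Bckdha had medians of 178 and 242 CPM in WT-Tg and D316A-Tg (log2 fold change 0.54, adjusted p = 0.0632), and Dbt medians of 103 and 133 CPM (0.43, adjusted p = 0.0589). Bckdhb was the gene with a negative difference, with medians of 125 and 119 CPM and a log2 fold change of -0.19 (adjusted p = 0.552). D316A-Tg libraries 10 and 12 had 71.4 and 72.1 CPM of Bckdhb, below every WT-Tg library, of which the lowest had 107 CPM. Bckdk had medians of 72.5 and 77.3 CPM and a log2 difference of 0.23 (adjusted p = 0.352). Ivd reached 0.40 (adjusted p = 0.0919), with medians of 247 and 318 CPM, and Mccc1, Pcca and Hibch had log2 differences of 0.14, 0.14 and 0.24 (adjusted p = 0.451, 0.440 and 0.204).

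The medians of the skeletal muscle markers also differed between genotypes, higher in WT-Tg on chow and higher in D316A-Tg on HFD. On chow the 14 markers, none at 0, summed to 32.3 to 11988 CPM in WT-Tg, with a median of 889 CPM. In D316A-Tg on chow they summed to 37.0 to 580 CPM, with a median of 129 CPM. On HFD they summed to 45.7 to 260 CPM in WT-Tg and to 278 to 24495 CPM in D316A-Tg. With their score, the mean log2 CPM, as a covariate none of the 10 genes was called in either genotype comparison. The share of all genes called in those fits is not given here. On HFD the score ran from 0.40 to 3.71 in WT-Tg and from 3.64 to 9.45 in D316A-Tg, so the fit could hardly part it from genotype. With the muscle score, the log2 fold change of Hibch on chow was 1.15 ± 0.32 (SE; adjusted p = 0.0690), near its value without the covariate. That of Ppm1k on HFD was 0.54 ± 0.45 (SE; adjusted p = 0.787), beside 0.81 ± 0.23 without the covariate. Mature adipocyte markers were alike in range on HFD, with sums of 34801 to 47787 CPM in WT-Tg libraries and 34830 to 48758 CPM in D316A-Tg libraries. D316A-Tg library 7 on HFD was the highest of its group for Bckdha, Bckdk, Pcca and Hibch. It had the highest sum of its group for the 7 brown and beige markers, at 1904 CPM against a group median of 150 CPM. It also had the highest for the 14 skeletal muscle markers, at 24495 CPM against 1757 CPM. Endothelial markers summed to 485 to 621 CPM in WT-Tg on HFD (median 536) and to 275 to 538 CPM in D316A-Tg (median 312), and fibroblast and progenitor markers to 1042 to 2460 CPM (median 1628) and 593 to 1739 CPM (median 917), with 6 markers in each list and none at 0. The 8 macrophage markers had median sums of 979 and 809 CPM, the 8 T lymphocyte markers of 9.28 and 184 CPM, the 4 liver markers of 194 and 171 CPM, and the 7 mammary epithelium markers, of which Wap was at 0 in every library, of 3.75 and 3.15 CPM. On chow the medians of WT-Tg and D316A-Tg were 404 and 291 CPM for endothelial, 744 and 815 CPM for fibroblast and progenitor, 884 and 414 CPM for macrophage, 731 and 12.5 CPM for T lymphocyte, 36.2 and 95.9 CPM for liver and 7.15 and 14.2 CPM for mammary epithelium markers. The part of these 6 lists in the results was not tested. When the lymphocyte-rich libraries were left out on HFD, 0.0% of 15131 genes were called by edgeR, with 1840 at an unadjusted p below 0.05. Of the 10 genes 5 differences were then positive and 5 negative, with a median of 0.05 on the log2 scale. The unadjusted p was below 0.05 for 1 of them, Bckdhb, named after its value was seen.

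**Figure D3:**
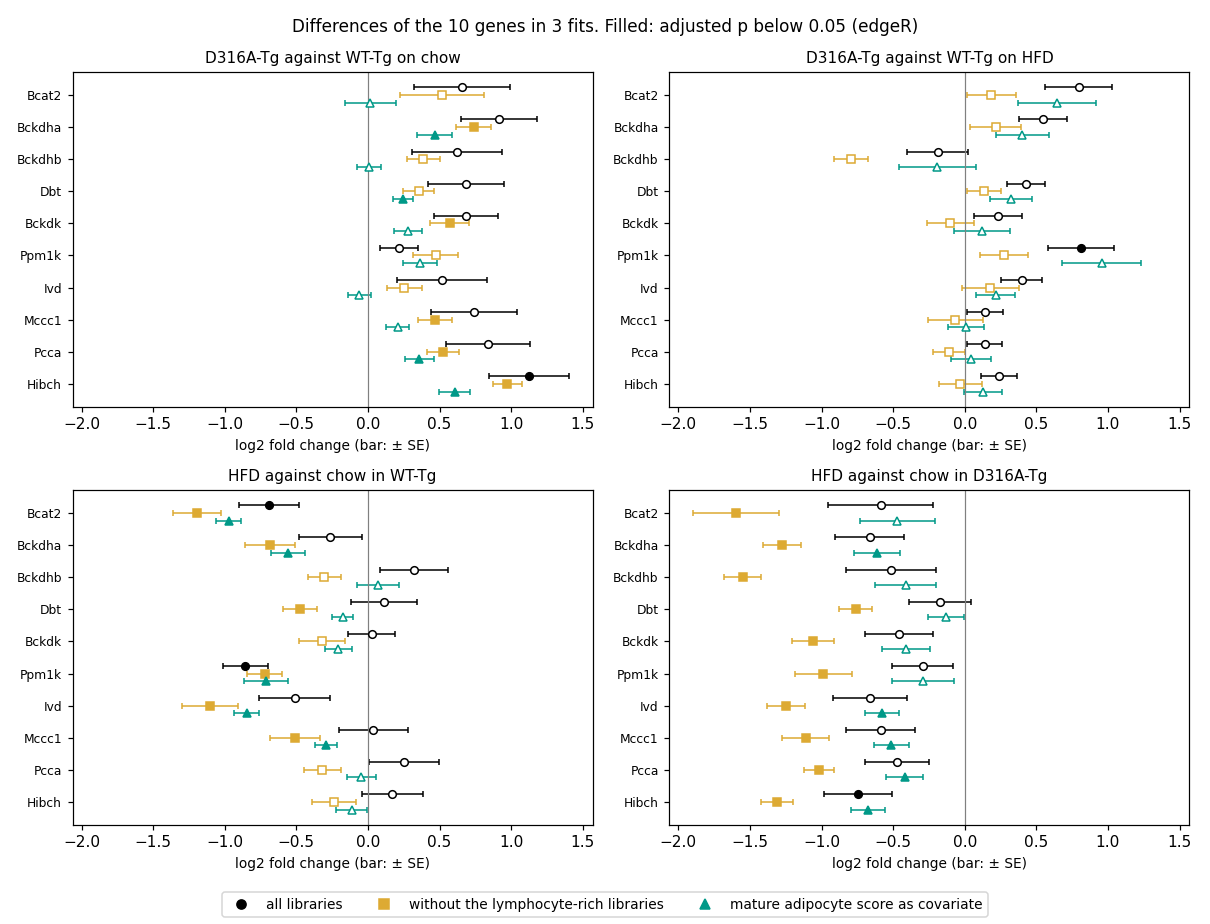
Log2 fold changes with SE of the 10 genes in 4 comparisons, from all libraries (circles), without the lymphocyte-rich libraries (squares) and with the mature adipocyte score as a covariate (triangles), filled where the adjusted p was below 0.05. On chow the circles lie between 0.22 and 1.12, and for D316A-Tg on HFD against chow the squares lie between -1.60 and -0.76.

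The difference of the D316A effect between the diets was tested as an interaction over all 24 libraries. None of the 10 genes passed in edgeR, with 12.9% of 16072 genes called, and 3 of the 10 had an unadjusted p below 0.05, as had 31.7% of all genes. DESeq2 called 1, Hibch, at -0.92 on the log2 scale, with 18.7% of all genes called, and voom called 9, with 64.2% of all genes called. The largest differences were -0.87 ± 0.31 for Hibch (SE; adjusted p = 0.0656), -0.79 ± 0.39 for Bckdhb (adjusted p = 0.166) and -0.68 ± 0.32 for Pcca (adjusted p = 0.148), and the largest positive one was 0.62 ± 0.27 for Ppm1k (adjusted p = 0.131). The median was -0.40, beside 0.07 over all genes. With the lymphocyte-rich libraries left out, 9.39% of genes were called, and 3 of the 10, Bckdhb, Pcca and Hibch, had a lower D316A effect on HFD than on chow, at -1.23, -0.68 and -1.05 on the log2 scale (adjusted p = 0.00659, 0.0259 and 0.00940). The difference of Ppm1k was then -0.25. This subset held 2 WT-Tg and 4 D316A-Tg libraries on chow, and 5 and 2 on HFD. The mean log2 CPM of 14 skeletal muscle markers was 6.32 and 8.00 in WT-Tg 5 and 6 on chow. It was 7.66 in D316A-Tg 10 on HFD and at most 3.90 in the rest of the subset. The part of muscle in these differences was not tested.

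Diet differed from chow together with age, the deposited table and the base-call software, and these cannot be told apart. The diet comparisons share their libraries with the genotype comparisons and are given as values of their own. In WT-Tg mice, Ppm1k and Bcat2 fell from chow to HFD, and the other 8 genes were not called, against 62.0% of 15018 genes called in this comparison. Ppm1k went from a median of 20.9 to 11.7 CPM, and its highest HFD library, 18.01 CPM, was just below its lowest chow library, 18.1 CPM, so that the groups did not overlap, as for 15.8% of all tested genes in this direction. The log2 fold change of Ppm1k was -0.86 ± 0.16 (SE; adjusted p = 0.000601) and that of Bcat2 was -0.69 ± 0.21 (SE; adjusted p = 0.0125). Both remained called on leaving out any 1 library, with ranges of -1.03 to -0.77 and -0.79 to -0.49. The median over the 10 genes was 0.03, beside -0.06 over all genes. Without the lymphocyte-rich libraries, where 51.3% of genes were called, 6 of the 10 fell, namely Bcat2, Bckdha, Dbt, Ppm1k, Ivd and Mccc1, and the median was -0.49. Dbt and Mccc1 had positive values in the full set, of 0.11 and 0.04, and negative ones of -0.47 and -0.51 in this subset of 2 chow against 5 HFD libraries. The mean log2 CPM of the skeletal muscle markers also separated this subset, at 6.32 and 8.00 on chow and 0.43 to 3.71 on HFD. The part of muscle in these values was not tested.

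In D316A-Tg mice all 10 genes had lower fitted levels on HFD than on chow, and Hibch fell by 0.75 ± 0.24 on the log2 scale (SE; adjusted p = 0.0333), against 30.8% of 14752 genes called. Its median went from 418 to 202 CPM. The groups overlapped, with 157 to 448 CPM on chow and 175 to 270 CPM on HFD. The call of Hibch was lost on leaving out any of chow libraries 7, 9, 10 and 12 or HFD libraries 8, 10, 11 and 12, with log2 fold changes of -0.74 to -0.69 and adjusted p between 0.0550 and 0.0777. The median over the 10 genes was -0.55, beside -0.03 over all genes, and Bckdha and Ivd had the adjusted p nearest to the threshold, 0.0553 and 0.0733. Without the lymphocyte-rich libraries all 10 fell, with 4 chow against 2 HFD libraries and a median of -1.18, where 47.3% of genes were called. Marker scores, as mean log2 CPM, also separated the diets in this subset. That of mature adipocytes was 10.79 to 11.05 on chow and 10.54 and 10.60 on HFD. The brown and beige score was 5.33 to 6.37 against 2.82 and 2.88, and the macrophage score 4.25 to 5.16 against 6.08 and 6.33. Their part in the fall of the 10 genes in this subset was not tested.

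Within the regulatory pair and its target, 2 ratios were taken in each library, of Bckdk to Bckdha and of Ppm1k to Bckdk, since a ratio within a library does not depend on library scaling. The 8 comparisons of these ratios were tested by exact two-sided permutation, with Benjamini-Hochberg adjustment over the 8. The log2 ratio of Bckdk to Bckdha was lower in D316A-Tg than in WT-Tg on both diets. On HFD it was -1.30 ± 0.06 in WT-Tg and -1.62 ± 0.09 in D316A-Tg (SD, n = 6), a difference of -0.32 with exact permutation p = 0.00216, the smallest that 6 against 6 allows (adjusted p = 0.0173). WT-Tg libraries lay between -1.36 and -1.20 and D316A-Tg libraries between -1.77 and -1.51, with no overlap. Among the lymphocyte-rich libraries, the single WT-Tg library, 3, at -1.36 stood above D316A-Tg 7, 8, 9 and 11 at -1.77 to -1.51, and among the rest the 5 WT-Tg libraries stood above D316A-Tg 10 and 12 at -1.66 and -1.56. In the 7 libraries that were not lymphocyte-rich the difference was again -0.32, with exact permutation p = 0.0952, the smallest that 5 against 2 allows. The summed skeletal muscle markers also separated the genotypes on HFD, with at most 260 CPM in WT-Tg and at least 278 CPM in D316A-Tg. Their part in this ratio was not tested. The share of other gene pairs whose ratios separate the groups is not given here.

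On chow the same ratio was -1.56 ± 0.22 in WT-Tg and -1.82 ± 0.14 in D316A-Tg (SD, n = 6), a difference of -0.27 (exact permutation p = 0.00866, adjusted p = 0.0303). WT-Tg libraries lay between -1.69 and -1.11 and D316A-Tg libraries between -2.07 and -1.65, so the groups overlapped. Without WT-Tg 4, which stood apart at -1.11, the difference was -0.18 (adjusted p = 0.0312). Leaving out the lymphocyte-rich libraries gave -0.17, in a design of 2 against 4 whose exact permutation test cannot go below p = 0.133. The ratio was higher on HFD than on chow by 0.25 in WT-Tg (exact permutation p = 0.0195, adjusted p = 0.0312), a call lost on leaving out any of chow libraries 1, 2, 5 and 6 or HFD libraries 2, 5 and 6, with differences of 0.23 to 0.26 (exact permutation, highest adjusted p = 0.0623). In D316A-Tg it was higher by 0.20 (exact permutation p = 0.0130, adjusted p = 0.0303).

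The Bckdk to Bckdha ratio rests on counts of Bckdha, of which 61.7% of the exon length (chr7:25629946-25658981, minus strand, GRCm38) overlaps B3gnt8 on the opposite strand. No source used here says whether counting used strand. B3gnt8 stood between 0.65 and 10.1 CPM over the 24 libraries, against 109 to 561 CPM for Bckdha. Smaller exon overlaps were found for Bcat2 (15.9%), Mccc1 (5.6%) and Pcca (4.6%), and none for Bckdk (chr7:127904082-127910221), Ppm1k (chr6:57506502-57535468), Hibch (chr1:52844929-52920986), Bckdhb, Dbt and Ivd.

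The log2 ratio of Ppm1k to Bckdk fell from -1.69 ± 0.55 on chow to -2.61 ± 0.44 on HFD in WT-Tg (SD, n = 6), a difference of -0.92 (exact permutation p = 0.0152, adjusted p = 0.0303). The ranges, -2.40 to -1.12 and -3.32 to -2.03, overlapped. In D316A-Tg the means were -2.13 on chow and -2.05 on HFD (exact permutation p = 0.790). Between genotypes the difference was -0.44 on chow (exact permutation p = 0.214) and 0.57 on HFD (exact permutation p = 0.0476, adjusted p = 0.0635). WT-Tg 1 to 4 on chow, all lymphocyte-rich, had ratios of -1.74 to -1.12, above the -2.30 and -2.40 of WT-Tg 5 and 6. D316A-Tg 8 and 11 on chow, also lymphocyte-rich, had -1.40 and -1.55, above the -2.98 to -2.11 of D316A-Tg 7, 9, 10 and 12. On HFD the libraries that were not lymphocyte-rich had -3.32 to -2.29 in WT-Tg and -2.63 and -2.15 in D316A-Tg. The genotype differences of this ratio without the lymphocyte-rich libraries are not given here. Without the lymphocyte-rich libraries the WT-Tg difference between diets was -0.38 (adjusted p = 0.327).

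**Figure D4:**
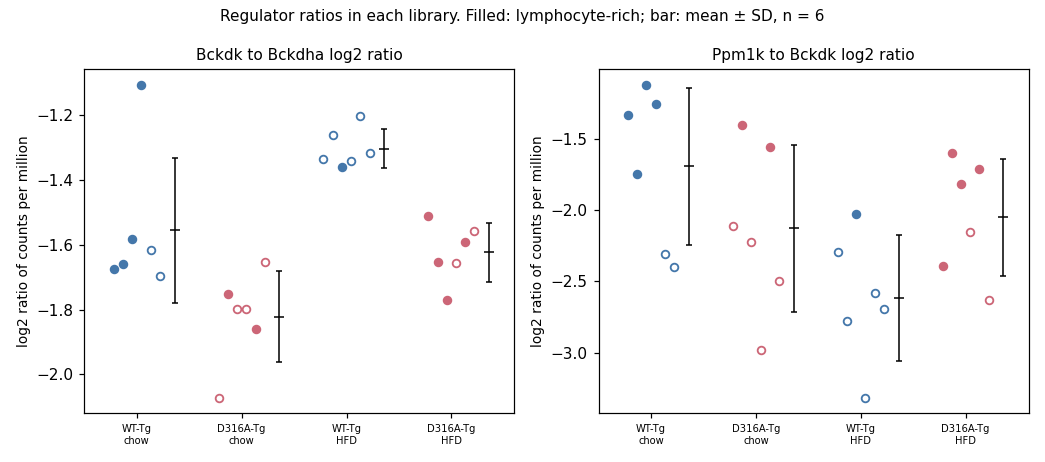
Log2 ratios of Bckdk to Bckdha (left) and of Ppm1k to Bckdk (right) in each library by group, filled for lymphocyte-rich libraries, with bars for mean ± SD of 6 libraries. On HFD the Bckdk to Bckdha ratio of each D316A-Tg library, at most -1.51, lies below that of each WT-Tg library, at least -1.36.

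Across the 24 libraries, after the mean of each group was taken away, 9 of the 10 genes varied together and Ppm1k did not follow them. The 36 pairs of genes without Ppm1k had Pearson correlations of log2 CPM from 0.85 to 0.97, with a median of 0.91, and the 9 pairs with Ppm1k from -0.06 to 0.35, with a median of 0.09. These are descriptions over libraries that share tissue make-up and depth, with no test. The correlations of other gene pairs are not given here, so these values cannot show anything particular to the pathway. The genes most like the mean of the 10, among 11580 compared, were Echs1 at 0.98, the crotonase of valine and fatty acid breakdown, Trap1, Gys1, Aldh2 and Acad8, the isobutyryl-CoA dehydrogenase of the valine route. For Bcat2 they were Fmo1 at 0.94, Ccbl2 and Surf1. For Bckdha they were Clpb at 0.99, Pccb, the partner subunit of Pcca, and Echs1. For Bckdk they were Ndufb10 at 0.98, Ndufs3 and Ndufs7, which encode subunits of respiratory complex I. For Ppm1k they were Pcna-ps2 at 0.87, Rchy1 and Matr3.

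A wider list of 27 pathway genes held the remaining enzymes, cofactor genes and transporters. On chow 3 of the 27 were called higher in D316A-Tg and none lower, near the 8.54% of all genes called, with a median log2 fold change of 0.67. The unadjusted p was below 0.05 for 18 of the 27, as for 29.9% of all genes. Among those 18, Slc3a2 and Slc7a8 were lower in D316A-Tg, at -0.34 and -1.19 on the log2 scale, and are named after their values were seen. Dld, the dehydrogenase subunit shared with the pyruvate and 2-oxoglutarate complexes, went from 212 ± 72.9 to 467 ± 121 CPM (SD, n = 6), a log2 fold change of 1.07 (adjusted p = 0.0242). Hibadh, which acts just after Hibch in the valine route, rose by 0.91 (adjusted p = 0.0487), and Mmaa, a gene of vitamin B12 handling for methylmalonyl-CoA mutase, by 0.67 (adjusted p = 0.0371). Klf15, a transcription factor known to control amino acid breakdown, had a log2 difference of 0.88 (adjusted p = 0.0967) and Bcat1, the cytosolic aminotransferase, one of 0.06 (adjusted p = 0.913). In the 12 other subunit and regulator genes of the pyruvate and 2-oxoglutarate dehydrogenases, 7 rose and none fell, against 8.54% of all genes called, with a median of 0.85.

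On HFD 5 of the 27 rose in D316A-Tg and 1 fell, against 8.47% of all genes called, with a median of 0.23. Slc43a1, a transporter of large neutral amino acids, rose by 1.51 (adjusted p = 0.0247), Klf15 by 0.98 (adjusted p = 0.0336), and the isoleucine route genes Hsd17b10 and Acadsb by 0.52 and 0.41 (adjusted p = 0.0146 and 0.0350). Aldh6a1, of the valine route, rose by 0.58 (adjusted p = 0.0360) and is named after its value was seen. Klf15 went from 43.2 ± 14.9 to 86.3 ± 23.5 CPM (SD, n = 6). Bcat1 fell from 72.2 ± 24.4 to 32.4 ± 16.9 CPM (SD, n = 6), by 1.17 on the log2 scale (adjusted p = 0.0423). Dld had a difference of -0.06 (adjusted p = 0.745). None of the 12 pyruvate and 2-oxoglutarate dehydrogenase genes was called by edgeR, with 5 at an unadjusted p below 0.05, as had 30.7% of all genes. Without the lymphocyte-rich libraries none of the 27 was called, as for all genes, with 4 at an unadjusted p below 0.05, as had 12.2% of all genes.

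The interaction of genotype and diet was called for 2 of the 27, against 12.9% of all genes, Dld at -1.11 (adjusted p = 0.00993) and Oxct1, the ketone body transferase, at -1.09 (adjusted p = 0.0232). The aminotransferases of the cytosol and the mitochondria went opposite ways with diet in WT-Tg, where Bcat1 rose by 3.06 on the log2 scale, from 8.36 ± 3.76 to 72.2 ± 24.4 CPM (SD, n = 6; adjusted p = 4.08e-06), while Bcat2 fell. In that comparison 7 of the 27 rose and 4 fell, against 62.0% of all genes called, among them Slc3a2, the shared heavy chain of amino acid transporters, and Oxct1, at 0.95 and 1.24 (adjusted p = 8.3e-05 and 9.91e-05), and Slc43a1 at -2.86 (adjusted p = 4.33e-05). Slc7a5 and Mmaa, which also fell, are named after their values were seen. In D316A-Tg 5 of the 27 rose and 5 fell on HFD, against 30.8% of all genes called. Bcat1 rose by 1.80 (adjusted p = 0.00794), Abat by 2.99 (adjusted p = 0.000507), Slc3a2 by 0.77 (adjusted p = 0.00217) and the biotin ligase gene Hlcs by 0.54 (adjusted p = 0.00152), while Mmaa was at -0.97 (adjusted p = 0.00193). Slc7a8, which rose, and Slc43a1, Mcee and Echs1, which fell, are named after their values were seen.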

How the data were processed

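The authors deposited whole-number read counts per gene in 2 tables, 1 per diet, with no normalisation before deposit as far as unequal totals show. Tools named in the submitters' processing notes are STAR 2.4.1, FastQC and DESeq2, with mm10 as the build. Per the labels, the software for base calls was bcl2fastq 2.20.0.422 (chow libraries) or bclfastq 2.16.0.10 (HFD libraries), the kit was TruSeq stranded mRNA, and RNA had an integrity number of at least 7. What counted the reads, with which annotation and strand setting, is not given in the sources used here. All count columns were used, and no replicate pair was so close as to be 1 library deposited again.

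Genes were joined by identifier. The test was edgeR 4.0.16's quasi-likelihood F test (R 4.3.3, robust, TMM, filterByExpr), and a gene was called where its p, adjusted by Benjamini-Hochberg over every gene in the fit, was below 0.05. The genotype comparisons were fitted within a diet, the diet comparisons within a genotype, and the interaction on all 24 libraries. The script was tested on simulated counts. Log2 CPM used a prior count of 2, and levels per length used principal transcripts of GENCODE M21. Each diet's lymphocyte-rich libraries lie above the largest gap in the mean log2 CPM of 9 B lymphocyte markers. Ratios were tested by exact permutation in scipy 1.17.1.

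Alternatives were RLE scaling, DESeq2 1.42.0, voom with quality weights (limma 3.58.1), other filters, another prior count, marker scores as covariates, a single fit of all libraries, a replicate block, and leaving out libraries. The 10 members, Dld, Bcat1, Klf15 and Prkag1 are always named. Of the wider list, up to 4 called genes with the lowest adjusted p and a mean of at least 5 CPM are named per comparison, and the most alike genes by correlation. Members and lists were chosen with earlier results of these data known. The T lymphocyte, macrophage, endothelial, fibroblast and progenitor, mammary epithelium and liver marker lists were summed in each library and entered no fit. The values of 1 gene of the wider list are not reported here.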

Additional observations from a re-analysis of the deposited data

Results flagged for a closer look

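Dixon's test for a library far from the rest of its group was run on 48 groups of 6 values, the 10 genes and 2 ratios in 4 groups, and found 4, where chance gives about 1 in 20. Bckdk was 138 CPM in D316A-Tg library 7 on HFD, with a gap to the next library of 0.63 of the group's range. Ppm1k was 18.01 CPM in WT-Tg library 3 on HFD, the lymphocyte-rich library of that group, with a gap of 0.707 of the range. Hibch was 234 CPM in WT-Tg library 4 on HFD, with a gap of 0.784 of the range. The log2 ratio of Bckdk to Bckdha was -1.11 in WT-Tg library 4 on chow, with a gap of 0.806 of the range. Their causes were not tested.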

How the results depend on the processing

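The counts of called genes moved with the tool, the filter, the marker scores and the libraries included. For most of these fits the share of all genes called is not given here. The moves in these counts therefore cannot show anything particular to the 10 genes. Every gene among the 10 had at least 183 counts in each library. The number of the 10 genes called on chow was 1, and became 4 with DESeq2, 9 with voom, 0 without a filter beyond 1 count, 2 with a mean count of at least 50, 6 with the B lymphocyte score, 0 with the skeletal muscle score, 4 with the mature adipocyte score, 5 without the lymphocyte-rich libraries and 6 in a single fit of all 24 libraries. On HFD it was 1, and became 5 with DESeq2 and with voom, and 0 without the filter, with each of the 3 scores, and without the lymphocyte-rich libraries. For HFD against chow in WT-Tg it was 2, and became 7 with voom, 5 with the adipocyte score and 6 without the lymphocyte-rich libraries. In D316A-Tg it was 1, and became 4 with DESeq2, 8 with voom, 0 without the filter, 2 with a mean count of at least 50, 0 with the B lymphocyte or muscle score, 5 with the adipocyte score, 10 without the lymphocyte-rich libraries and 2 in the single fit. For the interaction it was 0, and became 1 with DESeq2, 9 with voom, 1 with the adipocyte score and 3 without the lymphocyte-rich libraries. Leaving out each library in turn gave 0 to 6 called genes on chow, 0 to 5 on HFD, 2 to 3 for the diets of WT-Tg mice, 0 to 6 for those of D316A-Tg mice and 0 to 2 for the interaction. On chow the 6 came without D316A-Tg 8, on HFD the 5 came without D316A-Tg 12, and for diet in D316A-Tg the 6 came without chow library 8.

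Libraries of the 2 diets share numbers within a genotype, and these did not pair them: the correlations of the 12 same-numbered pairs ran from -0.51 to 0.67, 8 were over 0.1, and 4 libraries matched their own number best. With the replicate number as a block, 0 of the 10 genes were called for diet in D316A-Tg, and the share of all genes called in that fit is not given here. The paired ratio test gave the same differences between diets with other p, for Ppm1k to Bckdk in WT-Tg (-0.92, adjusted p = 0.05 by exact permutation), for Bckdk to Bckdha in WT-Tg (0.25, adjusted p = 0.125 by exact permutation) and in D316A-Tg (0.20, adjusted p = 0.05 by exact permutation). This exact permutation flips the signs of 6 paired differences, and its smallest p is 0.03125. The results at an adjusted p of 0.05 stood at that floor, so they could not have been called.

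With the lymphocyte-rich libraries left out, the log2 differences of the Bckdk to Bckdha ratio were -0.17 for genotype on chow, -0.32 on HFD, 0.36 for diet in WT-Tg and 0.22 in D316A-Tg, and that of Ppm1k to Bckdk for diet in WT-Tg was -0.38. These tests of 2 to 5 libraries a group cannot pass the threshold. Leaving out each library gave, for Bckdk to Bckdha, -0.30 to -0.18 on chow, -0.34 to -0.29 on HFD, 0.23 to 0.34 for diet in WT-Tg mice (highest adjusted p = 0.0623, by exact permutation) and 0.15 to 0.23 in D316A-Tg. The call in WT-Tg was lost without chow 1, 2, 5 or 6 or HFD 2, 5 or 6. For Ppm1k to Bckdk it gave -0.58 to -0.27 on chow, 0.43 to 0.68 on HFD (called without WT-Tg 3 or D316A-Tg 12), -1.06 to -0.78 for diet in WT-Tg mice and -0.092 to 0.22 in D316A-Tg, below 0 without chow 10 and, at -0.011, without HFD 8.

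Single genes changed sign in these cases, and the cause was not tested. When the lymphocyte-rich libraries were dropped, the HFD genotype differences were -0.10 for Bckdk, -0.066 for Mccc1, -0.11 for Pcca and -0.031 for Hibch, the WT-Tg diet differences -0.31 for Bckdhb, -0.47 for Dbt, -0.32 for Bckdk, -0.51 for Mccc1, -0.32 for Pcca and -0.24 for Hibch, and the interactions -0.38 for Bcat2 and -0.25 for Ppm1k. With the B lymphocyte score, the WT-Tg diet differences were -0.12 for Dbt, -0.14 for Bckdk, -0.20 for Mccc1 and -0.045 for Hibch, the D316A-Tg diet difference of Dbt was 0.10, and the interactions were 0.031 for Bckdha, 0.22 for Dbt and 0.45 for Ivd. With the adipocyte score, Ivd on chow was -0.060, the WT-Tg diet differences were -0.18 for Dbt, -0.21 for Bckdk, -0.29 for Mccc1, -0.047 for Pcca and -0.12 for Hibch, and the interactions 0.028 for Dbt and 0.29 for Ivd. With the muscle score, Bckdk and Pcca on HFD were -0.18 and -0.069 and the Bcat2 interaction was -0.16, and it was -0.26 with voom. With a mean count of at least 50, WT-Tg diet differences were -0.037 for Bckdk and -0.020 for Mccc1. Leaving out 1 library took the WT-Tg diet difference to between -0.054 and 0.14 for Bckdk, -0.091 and 0.23 for Mccc1 and -0.0083 and 0.32 for Dbt, and the interaction to between -0.012 and 0.27 for Bcat2 and -0.31 and 0.0016 for Ivd. RLE scaling left the counts of called genes the same or nearly so, and a prior count of 0.5 changed none of the calls of the ratios.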
